A study of Mus musculus with 48 samples.

Results

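The genes described here encode the constitutive proteasome and its partners in Kupffer cells, the resident macrophages of the liver. They were all gene symbols made of Psma to Psmg followed by a number, with a mean of at least 1 CPM (counts scaled to library size) over the 48 libraries. Of 54735 genes in the files, 48 symbols had this form. Psmb8, Psmb9 and Psmb10, the catalytic subunits of the immunoproteasome, were left out by design, and Psmb11 was under 1 CPM. The remaining 44 genes comprised 15 core genes (8 Psma and 7 Psmb), 20 cap genes (6 Psmc and 14 Psmd), 4 activator genes (Psme), Psmf1, which encodes a proteasome inhibitor, and 4 assembly chaperone genes (Psmg).

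Bulk total RNA was sequenced from liver cells of C57BL/6 males. The mice had received either PBS, the saline control, or APAP, which is acetaminophen, a drug that injures the liver in overdose. Cells labelled KCs came from PBS at 0 h and 24 h (2 libraries each) and from APAP at 6, 12, 24, 36, 48, 72, 96, 120 and 168 h (4 libraries each). Cells labelled LAM-like KCs, a name that refers to lipid-associated macrophages, came from APAP at 36 and 48 h (4 libraries each). No transgene is named. The age of the mice, the dose and the sorting of the cells are not given in the sources used here, nor is whether libraries came from separate animals, so p-values measure the spread between libraries, which may be technical.

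The proteasome degrades proteins tagged with ubiquitin. Its barrel-shaped 20S core is built of alpha and beta rings, and a 19S cap recognises, deubiquitinates, unfolds and feeds substrates into it, while the Psme activators open the core without that cap. In mammalian cells the transcription factor NRF1 (Nfe2l1), which is processed by Ddi2 and Ngly1, is known to raise many subunit genes together when proteasome capacity falls short.

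Libraries held 15885336 to 26058698 counts, and the lowest count of any of the 44 genes in any library was 77. All 44 passed the filter on low counts, as did 17080 genes in all. The sample numbers in the file headers run from 1 to 48, and replicates 1 and 2 of each APAP group fell among numbers 1 to 25 (set 1) and replicates 3 and 4 among the others (set 2), except that replicate 3 of 12 h was also in set 1. Both PBS 24 h libraries were in set 1 and both PBS 0 h libraries in set 2, so a direct comparison of the PBS groups also compares the sets. The summed core level was 2191 ± 239 CPM at PBS 0 h and 1847 ± 51.6 CPM at PBS 24 h (SD, n = 2 each). With set as a covariate, which the APAP groups of both sets make estimable, the median log2 difference of the core genes between the PBS groups was -0.0021 and 0 of the 44 genes were called. The 7 Kupffer cell markers were detected in every group, with summed levels of 35886 to 39715 CPM with PBS, 26381 to 27544 CPM at 36 h and 18326 to 26531 CPM in the LAM-like cells at 48 h. In bulk samples, fewer cells of a type and less RNA per cell cannot be told apart.

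With PBS, levels per kilobase of merged exon (CPM per kb, GENCODE M21 gene models) spanned a wide range although core subunits are built into the particle in equal numbers. The alpha subunit gene Psma6 had the highest level, 242 CPM per kb, followed by the beta subunit gene Psmb2 at 148 CPM per kb. Psme2 and Psme1, which encode the 2 subunits of the interferon-inducible PA28 activator, came next with 95.5 and 94.0 CPM per kb. Of the catalytic genes, Psmb6 (beta1) had 56.5, Psmb5 (beta5) 45.3 and Psmb7 (beta2) 10.98 CPM per kb. The lowest level was that of the chaperone gene Psmg3, 2.69 CPM per kb, below Psma8, a testis-enriched alpha subunit, at 3.02 CPM per kb. Merged exons include rarely used ones, so the order is approximate. Of the 44 genes, 9 overlap another annotated gene on the same strand and 15 one on the other strand, and the strand setting of the counting is not given in the sources used here. Psme2b, a near copy of Psme2, had 60.5 ± 4.94 CPM with PBS (SD, n = 4), so that reads of Psme2 may be split between them.

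**Figure D1:**
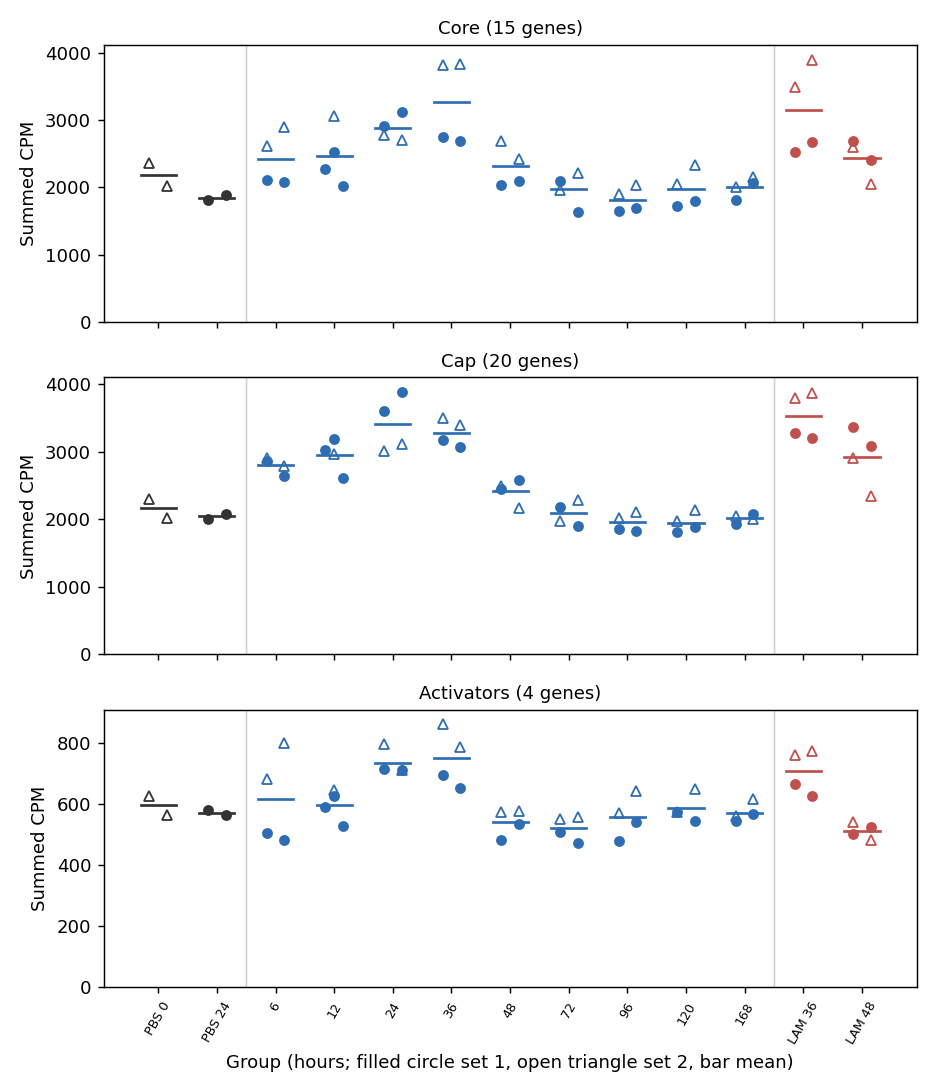
Summed CPM of the 15 core, 20 cap and 4 activator genes in each of the 48 libraries (y axis from 0) by group (x axis, hours; PBS black, KCs after APAP blue, LAM-like cells red). Filled circles are libraries of set 1, open triangles those of set 2 and bars group means; core and cap sums are highest at 24 to 36 h and back near PBS from 72 h.

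After APAP, 41 of the 44 proteasome genes were called higher than PBS at 1 or more of the times from 6 to 36 h, and none at a later time. The matching share of all genes over these times together was not computed. Counts at single times are given below beside their shares. The highest group mean was at 24 h for 21 genes, at 36 h for 21 and at 6 h for Psmc1 and Psme4. Psme1, Psma8 and Psmd10 were called higher at no time. The summed level of the 44 genes was 4794 ± 400.5 CPM with PBS (SD, n = 4), 5935 ± 620 CPM at 6 h, 6123 ± 670 CPM at 12 h, 7163 ± 572 CPM at 24 h and 7454 ± 949 CPM at 36 h (SD, n = 4 each). It then fell to 5382 ± 346 CPM at 48 h and 4676 ± 462 CPM at 72 h, and lay between 4419 and 4689 CPM at 96 to 168 h. Each time was tested against the PBS libraries with edgeR's quasi-likelihood test, adjusted by the Benjamini-Hochberg method over all 17080 genes and called at an adjusted p below 0.05. The comparisons share the 4 PBS libraries. The test over all KC groups called 41 of the 44 genes, all but Psme1, Psma8 and Psmd10, beside 54.1% of all genes.

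At 6 h, 17 of 44 proteasome genes were called higher and none lower, beside 9.72% of all genes called higher. At 12 h 22 were higher (12.5% of all genes), at 24 h 35 (16% of all genes) and at 36 h 39 (15.8% of all genes), again with none called lower. The median log2 fold change of the 44 genes was 0.31, 0.40, 0.63 and 0.64 at these times, against medians of 0.04, 0.02, 0.02 and 0.02 over all genes. The 6 h count was the least stable. It fell to between 6 and 11 when PBS 0 h replicate 1 or 2, PBS 24 h replicate 1 or 2, or 6 h replicate 3 or 4 was left out, and the 12 h count fell to 13 without PBS 0 h replicate 2. At 36 h, 32 of the 39 calls held in every fit that left out 1 library, and 32 held in both sets taken alone. Set 1 alone has only PBS 24 h as control and set 2 alone only PBS 0 h. In these fits set and control group cannot be told apart.

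From 48 h on no proteasome gene passed the test. At 48 h, where 3.67% of all genes were called, 12 of the 44 had an unadjusted p below 0.05, all higher than PBS, and DESeq2 called 1 gene. The corresponding numbers at an unadjusted p below 0.05 were 3 at 72 h (2 lower, beside 1.94% of all genes called), 0 at 96 h (0.158%), 3 at 120 h (0.123%) and 0 at 168 h (0.0351%), with 0 calls by DESeq2 at each of these times. The direct comparison of 48 h with 36 h, added after the data were seen, called 28 proteasome genes, all lower at 48 h, beside 8.74% of all genes called lower. That count was 13, 15 and 18 without 36 h replicate 3, 36 h replicate 4 and 48 h replicate 1, respectively.

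**Figure D2:**
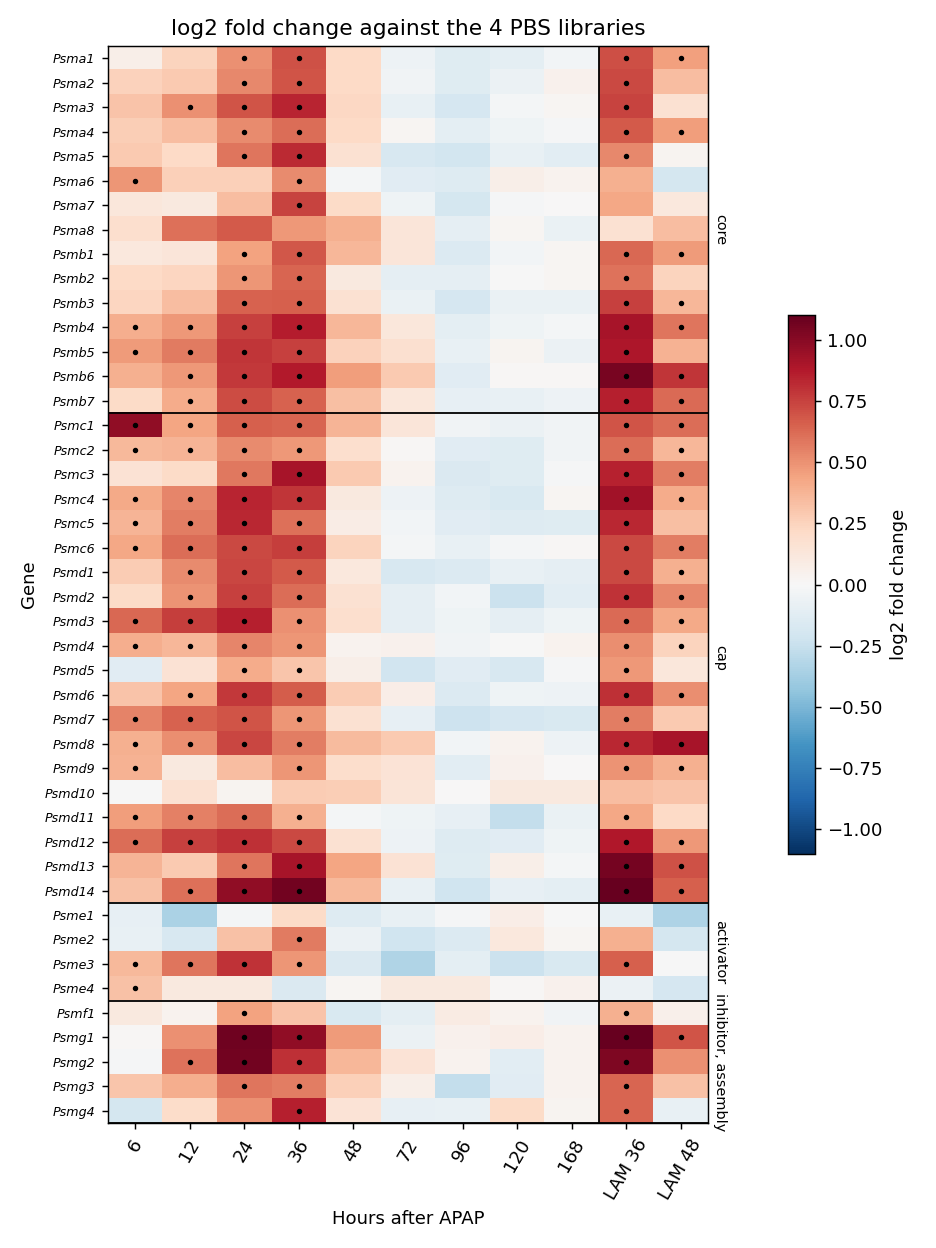
Log2 fold change against the 4 PBS libraries (colour) of each of the 44 genes (y axis, by class) at each time after APAP (x axis, hours) in KCs and, right of the line, in LAM-like cells. Dots mark an adjusted p below 0.05; 35 genes carry a dot at 24 h and 39 at 36 h, and none at 48 to 168 h in KCs.

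Among the core genes, 3 of 15 were higher at 6 h, 5 at 12 h, 12 at 24 h and 14 at 36 h. Of all genes, 9.72%, 12.5%, 16% and 15.8% were called higher at these times. The median log2 fold change of the core genes was 0.69 at 36 h. The counts at 12 and 24 h depended on the sets. With set as a covariate, added after the data were seen, 11 of 15 core genes were called at 12 h and 14 at 24 h. In that fit 22.1% and 29.4% of all genes were called in either direction. Within set 2 alone 3 core genes were called at 24 h, beside 12.4% of all genes. At 12 h, where set 2 holds 1 library, the median log2 fold change of the core genes was 0.48. Of the 15, 12 had their highest group mean at 36 h and the others (Psmb5, Psmb7 and Psma8) at 24 h. Psma8, with 7.54 CPM with PBS and 10.3 CPM at 36 h, was the core gene not called at any time.

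Psmb6 (GRCm38 chr11:70525367-70527858, plus strand) encodes the caspase-like catalytic subunit beta1. It had 122 and 99.7 CPM at PBS 0 h and 101 and 101 CPM at PBS 24 h. At 36 h the 4 libraries had 173, 162, 213 and 223 CPM, all above every PBS library. The log2 fold change was 0.87 ± 0.15 (SE), a 1.83-fold rise (adjusted p = 3.70e-05). The pseudogene copies Psmb6-ps and Psmb6-ps2 had 0.442 and 1.86 CPM with PBS, small beside Psmb6 itself.

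Psmb5, the chymotrypsin-like catalytic subunit that proteasome drugs bind, rose with Psmb6. Its libraries had 46.9, 43.3, 36.7 and 36.1 CPM with PBS, 74.2, 81.2, 62.9 and 61.4 CPM at 24 h and 62.4, 56.3, 75.4 and 78.3 CPM at 36 h. The groups at 24 and 36 h did not overlap with PBS, and the folds were 1.73 (adjusted p = 0.000172) and 1.68 (adjusted p = 0.000285). Psmb7, the trypsin-like catalytic subunit, had 36.1 to 38.7 CPM with PBS and 54.8 to 68.1 CPM at 24 h, a 1.64-fold rise (adjusted p = 3.57e-05). The log2 fold changes of the 3 catalytic genes at 24 h were 0.79 for Psmb5, 0.78 for Psmb6 and 0.72 for Psmb7.

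The largest core changes beside that of Psmb6 were those of Psmb4 and Psma3, structural subunits of the beta and alpha rings. Psmb4 had 94.0, 76.4, 79.3 and 84.9 CPM with PBS and 139, 131, 181 and 159 CPM at 36 h (1.82-fold, adjusted p = 1.27e-06). Psma3 had 236, 203, 169 and 188 CPM with PBS and 264, 274, 443 and 436 CPM at 36 h (1.79-fold, adjusted p = 0.000393). The 36 h libraries of both genes lay above every PBS library, and those of set 2 (replicates 3 and 4) were the higher pair. Within set 1 alone 13 of 15 core genes were called higher at 36 h, and within set 2 alone 14. In these fits 18.2% and 21.5% of all genes were called in either direction.

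Of the 20 cap genes, 12 were called higher at 6 h, 15 at 12 h, 18 at 24 h and 19 at 36 h. Of all genes, 9.72%, 12.5%, 16% and 15.8% were called higher at these times. The highest group mean was at 24 h for 13 cap genes, at 36 h for 6 and at 6 h for Psmc1. With set as a covariate the cap count at 12 h was 16 of 20, beside the 11 of 15 core genes above, and within set 2 alone it was 4 of 20, beside 4 of 15. The cap gene not called at 36 h was Psmd10 (gankyrin, a chaperone of cap assembly), with 43.4 CPM with PBS and 51.8 CPM at 36 h. It was called at no time.

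Psmc1 (chr12:100110154-100123405, plus strand), an ATPase of the ring that unfolds substrates, had the largest change at 6 h. Its libraries had 185, 167, 174 and 183 CPM with PBS and 511, 362, 267 and 253 CPM at 6 h. All 6 h libraries lay above all PBS libraries, and the set 1 pair was far above the set 2 pair. The fold was 1.97 (log2 0.97 ± 0.15, adjusted p = 1.28e-05). Within set 1 alone the fold was 2.39 (adjusted p = 6.39e-06) and within set 2 alone 1.48 (adjusted p = 0.0103). At 36 h Psmc1 stood at 278, 273, 279 and 272 CPM (1.56-fold, adjusted p = 0.000965).

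Psmd14 (chr2:61711694-61800376, plus strand), the deubiquitinase that removes ubiquitin chains at the entrance of the particle, had the largest cap change. It had 121, 92.3, 92.9 and 89.3 CPM with PBS, 184, 229, 181 and 180 CPM at 24 h and 159, 170, 238 and 254 CPM at 36 h. Neither later group overlapped with PBS. The folds were 1.97 at 24 h (adjusted p = 2.56e-05) and 2.08 at 36 h (adjusted p = 5.95e-06). Psmd4, a ubiquitin receptor, changed less but with little spread. It had 88.6 to 102 CPM with PBS and 124, 120, 126 and 126 CPM at 6 h (1.32-fold, adjusted p = 0.00114), and 1.45-fold at 24 h.

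Psmd13, a subunit of the cap lid, was among the later cap genes. It had 58.0 to 88.8 CPM with PBS, 72.2 to 103 CPM at 6 h, overlapping with PBS, and 117, 111, 145 and 156 CPM at 36 h, all above PBS (1.88-fold, adjusted p = 1.70e-06). Psmc3, a further ATPase named after its values were seen, had the lowest adjusted p of any proteasome gene at 36 h, with 126 CPM with PBS and 226, 208, 257 and 255 CPM at 36 h (1.87-fold, adjusted p = 1.60e-08). Psmd3, also chosen after its values were seen and also a lid subunit, was highest at 24 h. It had 85.6 to 107 CPM with PBS, 160, 160, 138 and 141 CPM at 6 h, 202, 215, 139 and 145 CPM at 24 h, and 149, 148, 129 and 124 CPM at 36 h, with folds of 1.55, 1.81 and 1.42.

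Phases of the KC series were then compared without the PBS libraries. Against the mean of 6, 12 and 24 h, the mean of 36, 48 and 72 h was lower for 12 of 20 cap genes and for 0 of 15 core genes, beside 18.1% of all genes called lower. Over all 44 genes, 15 were called lower (12 cap genes, Psme3, Psme4 and Psmf1). At an unadjusted p below 0.05, 19 were lower and 1 was higher, and DESeq2 called 14 of the 44 lower and 1 higher. The largest cap falls were those of Psmd3, which fell by 0.55 on the log2 scale (adjusted p = 3.47e-08), and Psmd12, which fell by 0.45 (adjusted p = 4.11e-06). The median log2 change was -0.25 for the cap and -0.09 for the core. With set as a covariate, added after the data were seen, 13 cap and 3 core genes were lower. Within set 1 alone 13 cap and 4 core genes were lower. Within set 2 alone 8 cap and 0 core genes were lower, while 1 cap gene was higher. In these 3 fits 38.2%, 36.8% and 16% of all genes were called in either direction, larger shares than those of the core genes. A test of cap against core as classes was not made. In the comparison of 36 h with 6 h, added after the data were seen, 12 of 15 core genes and 8 of 20 cap genes were higher at 36 h, beside 15.9% of all genes.

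The ratio of the summed cap level to the summed core level was 1.05 ± 0.0695 with PBS, 1.17 ± 0.175 at 6 h, 1.21 ± 0.165 at 12 h, 1.18 ± 0.0730 at 24 h and 1.02 ± 0.143 at 36 h (SD, n = 4 each). This ratio differed between sets as well as between times. Counting the PBS libraries as 1 group, every set 1 library lay above every set 2 library in 11 of 12 groups, the exception being 168 h. Within set 1 the mean ratio went from 1.11 with PBS to 1.31 at 6 h and 1.15 at 36 h, and within set 2 from 0.987 to 1.04 and 0.898, so that the order 6 h, PBS and 36 h differed between sets. The part of the set in the timing difference was not tested beyond these values. Within set 1 alone 10 cap genes and 1 core gene were called higher at 6 h, and within set 2 alone 8 cap genes and 4 core genes. In these fits 18.1% and 8.06% of all genes were called in either direction, so the 1 of 15 core genes in set 1 is a smaller share than that of all genes.

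**Figure D3:**
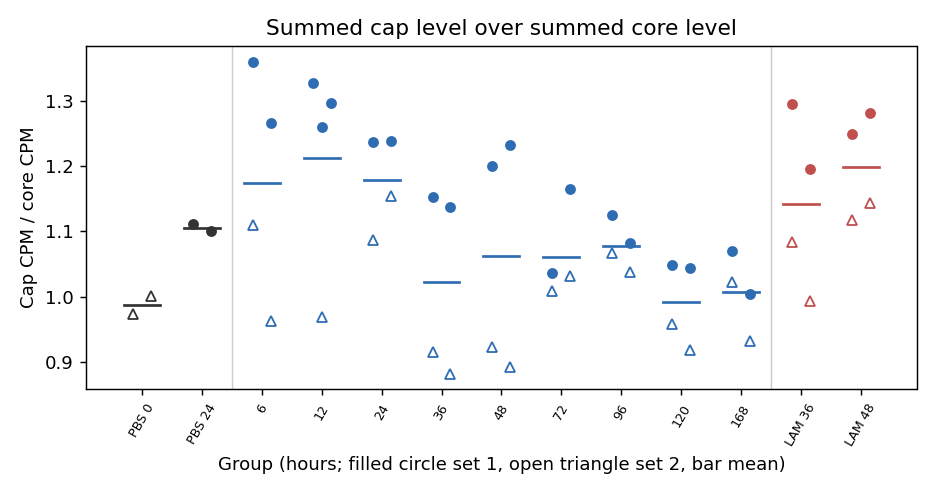
Summed cap CPM divided by summed core CPM (y axis, which does not start at 0) in each library by group (x axis, hours). Filled circles are set 1, open triangles set 2 and bars group means; at 6 h set 1 averages 1.31 and set 2 averages 1.04, beside 1.11 and 0.987 with PBS.

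Promoter sequence was examined because most core and cap genes were called higher at the same times. RefSeq promoters (GRCm38.p6, 250 bases before to 50 after the start) were found for 36 of the 44 genes. In the 250 bases before the start, the core of the antioxidant response element (TGACNNNGC on either strand), to which NRF1 and NRF2 can bind with small Maf proteins, was present in 5 of 36 proteasome promoters (13.9%) and in 11.5% of all 27025 genes in the table. The CCAAT motif (either strand) was present in 12 of 36 (33.3%), and in 37.5% of all. The shares of the proteasome promoters and of all promoters differ little, and a match is a description of letters only. The stretches below show the matches before the start of Psmb5 and Psmb6, the catalytic genes described above, of Psmc6 and Psmd12, cap genes called from 6 to 36 h, and the CCAAT matches of Psmc1 and Psmd14, the cap genes with the largest changes. Each is given 5′ to 3′ on the gene's strand, with up to 50 bases on either side of the match inside the promoter window and outside annotated exons, and has the match in capitals.
Psmb5, chr14:54618023-54618092, minus strand: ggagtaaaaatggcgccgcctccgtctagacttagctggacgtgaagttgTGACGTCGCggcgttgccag
Psmb6, chr11:70525298-70525356, plus strand: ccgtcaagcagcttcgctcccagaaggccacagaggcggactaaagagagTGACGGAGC
Psmc6, chr14:45329574-45329655, plus strand: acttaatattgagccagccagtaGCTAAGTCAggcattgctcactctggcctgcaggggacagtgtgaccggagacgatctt
Psmd12, chr11:107479278-107479339, plus strand: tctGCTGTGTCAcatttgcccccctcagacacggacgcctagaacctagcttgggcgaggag
Psmc1, chr12:100109977-100110081, plus strand: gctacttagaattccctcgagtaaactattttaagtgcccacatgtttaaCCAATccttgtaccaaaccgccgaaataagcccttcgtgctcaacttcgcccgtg
Psmd14, chr2:61711485-61711589, plus strand: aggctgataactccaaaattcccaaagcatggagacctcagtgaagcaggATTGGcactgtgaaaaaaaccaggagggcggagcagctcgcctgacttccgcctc
The match of Psmb5 begins 47 bases before the start and that of Psmb6 9 bases before it, both on the gene's strand. Those of Psmc6 and Psmd12 begin 227 and 247 bases before the start, on the other strand. The element not shown is that of Psmd9, a cap gene called higher at 6 and 36 h only. It begins 31 bases before the start, on the gene's strand. The CCAAT of Psmc1 lies 175 bases and that of Psmd14 159 bases before the start, the latter read on the other strand.

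**Figure D4:**
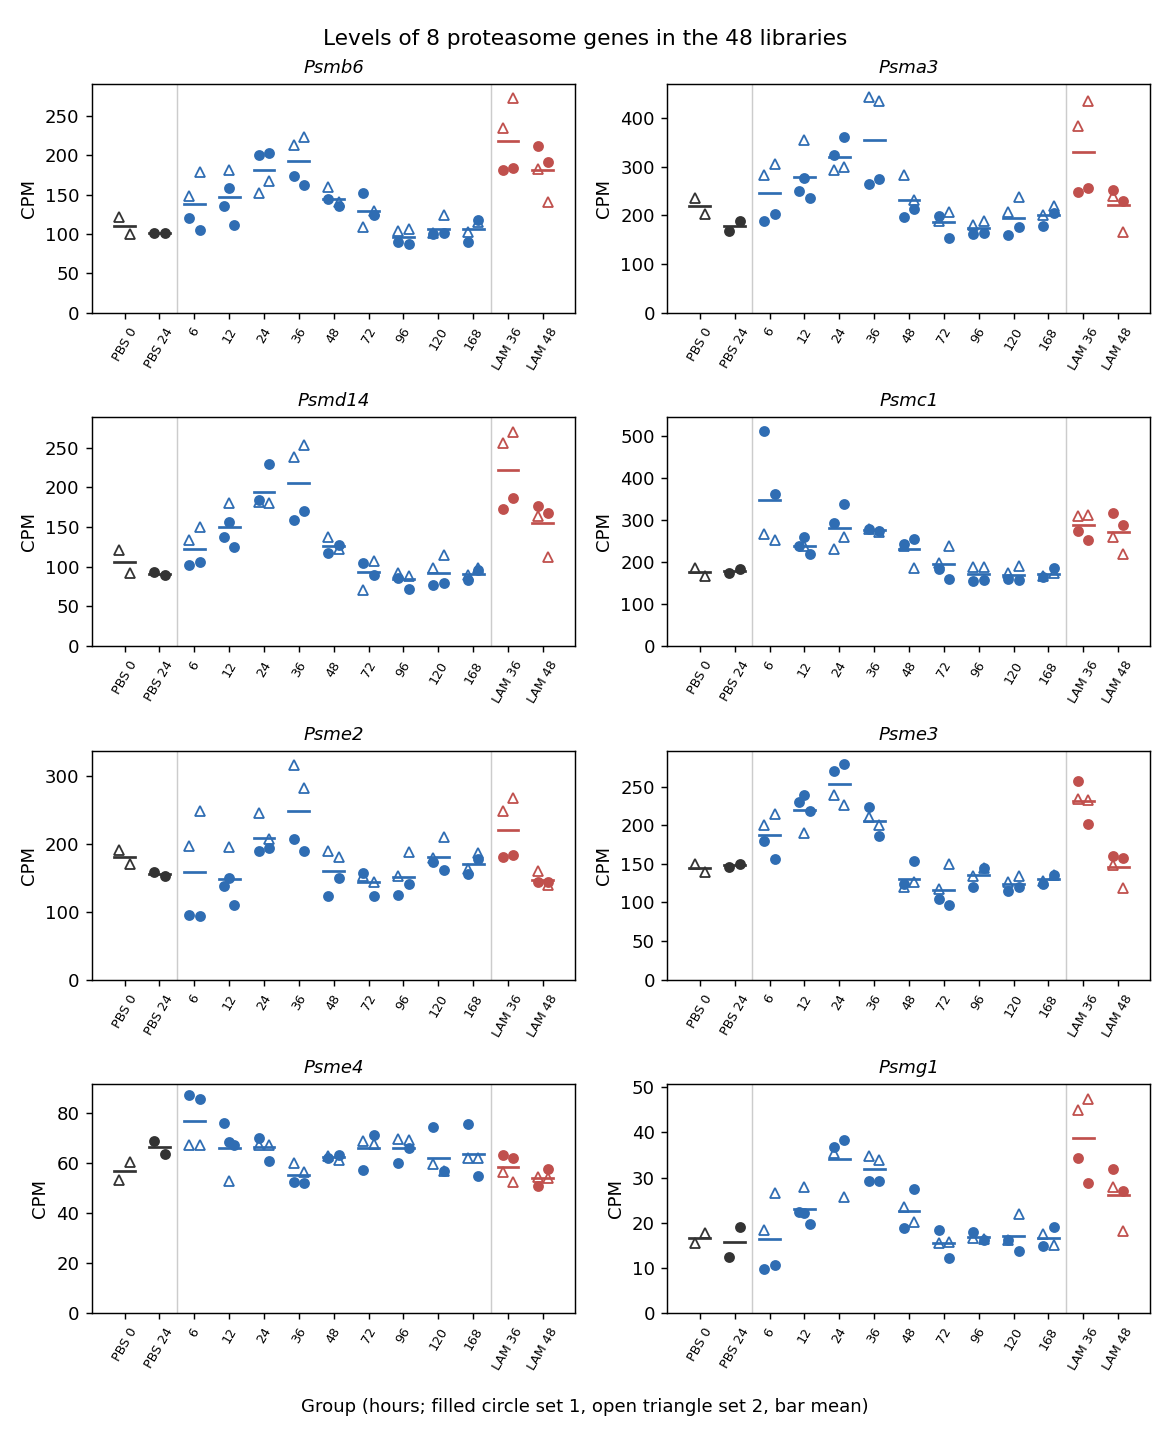
CPM of Psmb6, Psma3, Psmd14, Psmc1, Psme2, Psme3, Psme4 and Psmg1 (y axes from 0) in each library by group (x axis, hours). Filled circles are set 1, open triangles set 2 and bars group means. By group mean in KCs, Psmc1 and Psme4 are highest at 6 h, Psme3 at 24 h, and Psmb6 and Psmd14 at 36 h.

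The 4 activator genes differed in their time courses. Psme3 (chr11:101316213-101323537, plus strand), which encodes the nuclear PA28 gamma activator, was called higher at 6, 12, 24 and 36 h. It had 150, 139, 146 and 150 CPM with PBS, 180, 156, 200 and 214 CPM at 6 h, 230, 240, 219 and 190 CPM at 12 h, 270, 279, 239 and 226 CPM at 24 h and 224, 187, 211 and 200 CPM at 36 h. No library of these 4 times overlapped with PBS. The log2 fold changes were 0.36 at 6 h, 0.59 at 12 h, 0.79 at 24 h (adjusted p = 1.96e-06) and 0.49 at 36 h (adjusted p = 0.00116). The 6 h call (adjusted p = 0.0285) was lost when any PBS library or 6 h replicate 3 or 4 was left out. From 48 to 72 h Psme3 stood at 96.6 to 153 CPM, and it had the largest fall of any proteasome gene between phases, by 0.58 on the log2 scale (adjusted p = 5.88e-09).

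Psme1 and Psme2 encode the alpha and beta subunits of PA28, which is induced by interferon gamma and acts in antigen processing. Psme1 had 233, 194, 206 and 198 CPM with PBS, 143, 146, 220 and 269 CPM at 6 h, and 147, 168, 131 and 207 CPM at 12 h. It was called at no time against PBS in the fit without set. With set as a covariate it was called lower at 12 h, with a log2 fold change of -0.28 (adjusted p = 0.0337), with -0.47 within set 1 alone (adjusted p = 0.00131) and -0.04 within set 2 alone (adjusted p = 0.941). Psme2 (chr14:55587441-55591113, minus strand) had 191, 170, 159 and 153 CPM with PBS, 94.7, 94.5, 197 and 249 CPM at 6 h, and 207, 189, 317 and 282 CPM at 36 h. At 6 h both genes were low in replicates 1 and 2 (set 1) and not in replicates 3 and 4 (set 2). Within set 1 alone Psme1 fell by 0.51 and Psme2 by 0.76 on the log2 scale at 6 h (adjusted p = 0.00186 and 0.000906), while within set 2 alone the changes were 0.19 and 0.30 (adjusted p = 0.398 and 0.212).

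Psme2 was called higher at 36 h (1.48-fold, adjusted p = 0.0376). That call was lost when any of the 4 PBS libraries or 36 h replicate 3 or 4 was left out, with adjusted p up to 0.166. Psme4, which encodes the PA200 activator, had 53.3, 60.7, 69.0 and 63.7 CPM with PBS and 87.3, 85.9, 67.4 and 67.4 CPM at 6 h (1.25-fold, adjusted p = 0.0324). This call was lost without any PBS library or 6 h replicate 1 or 2. At 36 h Psme4 had 52.4, 51.9, 60.1 and 56.4 CPM, and it was the proteasome gene that was lower at 36 h than at 6 h, by 0.48 on the log2 scale (adjusted p = 0.000444) where 24 others were higher.

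Of the inhibitor and assembly genes, none was called at 6 h, 1 of 5 at 12 h, and 4 of 5 at each of 24 and 36 h. The shares of all genes called higher were 9.72%, 12.5%, 16% and 15.8%. With only 5 genes, the counts at 6 and 12 h cannot be told apart from these shares. The partner chaperones Psmg1 and Psmg2, which bring the alpha ring together, had the largest folds of all 44 genes at 24 h. Psmg1 had 15.6, 17.8, 12.4 and 19.1 CPM with PBS and 36.8, 38.3, 35.5 and 25.6 CPM at 24 h, with no overlap (2.10-fold, adjusted p = 0.000225). Psmg2 had 22.2, 14.2, 17.2 and 20.9 CPM with PBS and 37.3, 44.6, 34.2 and 39.3 CPM at 24 h, again with no overlap (2.08-fold, adjusted p = 4.58e-05). Psmg4, the partner of Psmg3 in assembly, had 13.9 to 19.8 CPM with PBS and 23.2, 20.5, 34.7 and 37.1 CPM at 36 h (1.81-fold, adjusted p = 0.00508). In set 1 at 6 h Psmg4 was low, with 7.48 and 9.97 CPM, against 17.4 and 21.1 CPM in set 2. Psmf1, the inhibitor gene, was called at 24 h alone (1.36-fold, adjusted p = 0.00797).

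Against the mean of 36, 48 and 72 h, the mean of 96, 120 and 168 h was lower for 35 of the 44 genes, beside 15.9% of all genes called lower. These were 13 of 15 core, 19 of 20 cap and 0 of 4 activator genes and 3 of the 5 others, and 28 of the 35 were called in both sets taken alone. At an unadjusted p below 0.05 the number was 37, all lower. Between the 2 PBS groups none of the 44 genes was called by the edgeR test or DESeq2, with 1 (Psmd10, lower at 24 h) at an unadjusted p below 0.05 and 0.0527% of all genes called.

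LAM-like cells carried levels close to those of KCs of the same time at 36 h. The summed level of the 44 genes was 7543 ± 1089 CPM in LAM-like cells and 7454 ± 949 CPM in KCs (SD, n = 4 each). No gene was called at 36 h by either tool, none had an unadjusted p below 0.05, and the log2 differences ran from -0.31 to 0.29, where 1.89% of all genes were called. Against PBS, in comparisons added after the data were seen, LAM-like cells at 36 h had 37 of 44 genes higher (20.3% of all genes) and at 48 h 23 (11.2% of all genes), the latter count being 15 without LAM-like 48 h replicate 1. Psmd14 had 172, 187, 256 and 270.1 CPM in LAM-like cells at 36 h, above every PBS library (2.25-fold, adjusted p = 5.54e-07), and Psmb6 had 181, 184, 235 and 273 CPM (2.07-fold, adjusted p = 9.67e-07).

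At 48 h the LAM-like cells had a summed level of 5983 ± 725 CPM and KCs 5382 ± 346 CPM. There, 2 cap genes were called higher in LAM-like cells, beside 1.14% of all genes. Psmd8, a lid subunit, had 238, 203, 181 and 141 CPM in LAM-like cells and 149, 126, 129 and 116 CPM in KCs. Same-numbered libraries of the 2 cell populations were taken as pairs. LAM-like cells were higher in 4 of 4 pairs, although LAM-like replicate 4 was below KC replicate 1. The fold was 1.47 (log2 0.55 ± 0.13, adjusted p = 0.0173). Psmd2, a large scaffold subunit of the cap base, had 442, 392, 364 and 329 CPM against 312, 358, 268 and 247 CPM, again higher in 4 of 4 pairs with overlap between the groups, a 1.29-fold difference (adjusted p = 0.0407). The pair result was not particular to these 2 genes. Among genes not called, Psmc1, Psmc2, Psmc3, Psmc5, Psmc6, Psmd3, Psmd4, Psmd6, Psmd9, Psmd11, Psmd12 and Psmd13 were also higher in 4 of 4 pairs. So were Psma1, Psmb4, Psmb6, Psmb7 and Psmf1, while Psme1 and Psme4 were higher in 0 of 4. The pairs were not counted over all genes. With the replicate number as a block the adjusted p was 0.0142 for Psmd8 and 0.038 for Psmd2.

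Markers of other cells also differed between these groups at 48 h, where 1.37% of all genes were called lower. The summed LAM markers were at 794 to 2149 CPM in LAM-like cells and 148 to 375 CPM in KCs (4 of 6 called higher), and the Kupffer cell markers at 18326 to 26531 and 25046 to 37269 CPM (2 of 7 lower). Endothelial markers summed to 403 to 693 and 548 to 734 CPM (2 of 7 lower) and stellate cell markers to 18.9 to 61.97 and 56.7 to 148 CPM (2 of 7 lower). Monocyte markers summed to 21.8 to 73.7 CPM in LAM-like cells and 163 to 357 CPM in KCs, without overlap, with 2 of the 5 tested called lower. No hepatocyte or cell division marker was called, and of 4 neutrophil markers tested 1 was lower. The part of these cells in the 2 calls was not tested.

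The calls of Psmd8 and Psmd2 were both lost without KC replicate 3 or 4 or LAM-like replicate 1 or 2, and that of Psmd2 also without LAM-like replicate 3. The number of calls at 48 h ran from 0 to 5 over the fits that left out 1 library, and was 5 without LAM-like replicate 4. All 20 cap genes had a positive log2 difference at 48 h, with a median of 0.25, against 0.13 for the core, -0.16 for the activators and -0.01 for all genes. The change of the LAM-like difference between 36 and 48 h was called for 0 of 44 genes by both tools, with 1 at an unadjusted p below 0.05 and 0.00585% of all genes called, so no difference between the times was shown.

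Genes that act beside the subunits were read from lists of the pathway. Of 7 further subunit, deubiquitinase and assembly genes, 2, 2, 4 and 3 were higher at 6, 12, 24 and 36 h, beside 9.72%, 12.5%, 16% and 15.8% of all genes. Usp14, a deubiquitinase bound to the cap, rose 1.14 ± 0.14 on the log2 scale at 24 h (adjusted p = 1.49e-07). Uchl5, another cap-bound deubiquitinase, rose 1.18 ± 0.14 at 36 h (adjusted p = 2.33e-08), with 41.2 to 50.5 CPM with PBS and 93.2 to 109.7 CPM at 36 h. Pomp, the chaperone of core maturation, rose at 36 h by 0.53 ± 0.15, when Akirin2, which aids nuclear import of proteasomes, fell by 0.47. Adrm1, a ubiquitin receptor of the cap, rose at 6, 12 and 24 h, by 0.66 at 6 h.

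The list for the NRF1 pathway held 7 genes, among them Nfe2l2, which encodes NRF2, and the small Maf genes Mafg, Mafk and Maff. Of these 7, 4 were higher and 1 lower at 6 h, where 9.72% of all genes were called higher and 5.42% lower. At 12 h 5 were higher (12.5% of all genes), at 24 h 3 were higher (16%) and 1 lower (10.9%), and at 36 h 1 was lower (10.5%). Nfe2l1, which encodes NRF1, had 102 to 138 CPM with PBS, 176, 166, 159 and 136 CPM at 12 h (log2 0.40 ± 0.11, adjusted p = 0.00951) and 88.0 to 104 CPM at 36 h, when it fell by 0.37 (adjusted p = 0.0139). Ddi2, the protease that processes NRF1, had 36.96, 43.8, 58.3 and 52.8 CPM with PBS and 192, 137, 47.5 and 49.7 CPM at 6 h. The set 1 pair was far above PBS and the set 2 pair overlapped with PBS, so the 6 h call (log2 1.17 ± 0.26, adjusted p = 0.00133) rests on the set in which Psmc1 was also highest. The small Maf genes Mafg and Mafk rose by 1.17 and 1.62 on the log2 scale at 6 h. Nfe2l2 had 240 to 261 CPM with PBS and 601, 653, 399 and 400 CPM at 12 h.

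Of 20 genes of ubiquitin handling, 6, 9, 12 and 7 were higher at 6, 12, 24 and 36 h and none was called lower at these times, beside the same shares of all genes. Among them Ufd1 and Nploc4, the ubiquitin adaptors of the unfoldase Vcp, rose by 0.64 and 0.72 on the log2 scale at 6 h, and Vcp itself by 0.58 at 24 h. Sqstm1, the autophagy receptor p62, rose by 1.88 at 12 h. The 3 immunoproteasome genes were all lower at 12 h (8.09% of all genes called lower), by 0.44 (Psmb8), 0.94 (Psmb9) and 0.36 (Psmb10) on the log2 scale, and Psmb8 was higher at 36 h by 0.53.

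Markers of dividing cells were also highest at 36 h by summed group mean, but most were still called higher at 48 h, where no proteasome gene was. All 10 of the list were detected in each group, and none was at 0 in a whole group. Their summed level was 167 to 399 CPM with PBS, 98.1 to 278 CPM at 6 and 12 h and 304 to 695 CPM at 24 h. It was 1590 to 1971 CPM at 36 h and 703 to 1085 CPM at 48 h. Of the 10, 2 were called higher at 24 h, 10 at 36 h and 8 at 48 h. Of all genes, 16% and 15.8% were called higher at 24 and 36 h, and 3.67% in either direction at 48 h. The 12 hepatocyte markers, all detected, summed to 2294 to 3585 CPM with PBS, 1088 to 1639 CPM at 24 h and 1861 to 18439 CPM at 72 h. Of the 12, 7 were called lower at 24 h and 3 at 36 h, beside 10.9% and 10.5% of all genes. The 6 LAM markers summed to 38.8 to 62.8 CPM with PBS and to 384 to 658 CPM in the LAM-like cells at 36 h, where no proteasome gene differed from KCs by the test. The 6 neutrophil markers summed to 0.772 to 2.05 CPM with PBS and 13.7 to 19.995 CPM at 12 h, and 2 of the 6 were at 0 in all PBS libraries. The part of these cells and of cell division in the proteasome results was not tested.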

How the data were processed

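The authors deposited a table of read counts per gene for each of 48 libraries, whole numbers that were not normalized. The submitters' processing notes name the mm10 build, featureCounts 2.0.0, HISAT2 2.2.0, and also SAMtools 1.10 and FastQC 0.11.9. The annotation release and strand setting are not given in the sources used here. Genes were filtered with filterByExpr, which kept 17080 of 54735 genes, scaled with TMM factors and fitted in 1 model over all 48 libraries and 13 groups with edgeR 4.0.16 (glmQLFit, robust; R 4.3.3). CPM values use the scaled library sizes, with totals of 15885336 to 26058698 counts. PBS is the mean of the coefficients of both PBS groups, so a fold can differ a little from the ratio of mean CPM. All tests are 2-sided. The Benjamini-Hochberg adjustment runs over every gene tested, separately by comparison, with calls at 0.05. DESeq2 1.42.0 was an alternative, with other scaling, no filter, a replicate block, single PBS groups, single header sets and each library left out. The method was tested on simulated data.

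The members and the gene lists were chosen with earlier results of these data known. Genes named in full were Psmb5, Psmb6, Psmb7, Psmd4, Psmd14 and the 4 Psme genes, the 3 genes with the largest called change in the core, the cap and the other genes, and those called in LAM-like cells; others are said to be chosen later. Same-numbered LAM-like and KC libraries of one time were taken as pairs. Their deviations from group means correlated at 0.126 to 0.350 in 8 of 8 pairs. Differently numbered pairs had a median of -0.0863 and reached 0.163, with 2 of 24 over 0.1. Same-numbered libraries also share a header set, and its part in these correlations was not tested. Same-numbered libraries of other APAP groups mostly share the set as well as the number. Replicate numbers follow the labels, which give 1 and 2 to PBS 0 h, while the file headers have 3 and 4. Promoters are RefSeq's, on GRCm38.p6. Single-cell and spatial data named in the design text are not analysed here.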

Additional observations from a re-analysis of the deposited data

Results flagged for a closer look

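In groups of 4 libraries, 7 of 242 tests had 1 library far from the other 3 by Dixon's 95% criterion, which compares the gap to the nearest library with the range of the group; chance gives about 1 in 20. At 120 h, Psmb6 had 124 CPM in KC replicate 4, against 99.8 to 102 CPM in the others, and Psme1 had 247 CPM in the same library, against 208 to 209.9 CPM. Psme4 had 74.7 CPM in KC 120 h replicate 1, against 56.8 to 59.6 CPM. At 24 h, Psmd14 had 229 CPM in KC replicate 2, against 180.3 to 184 CPM, and the summed activator level was 797 CPM in KC replicate 3, against 712 to 715 CPM. Psmg1 had 17.9 CPM in KC 96 h replicate 1, against 16.3 to 16.5 CPM. Psmb5 had 43.7 CPM in LAM-like 48 h replicate 4, against 54.9 to 56.6 CPM, and was the only low value of the 7.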

How the results depend on the processing

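The number of proteasome genes called at 36 h against PBS (39) stayed between 32 and 39, and that at 24 h (35) between 29 and 36, over the fits that left out 1 library. The same ranges were 6 to 17 at 6 h, 13 to 24 at 12 h, 0 to 1 at 72 h, 0 to 5 for LAM-like cells against KCs at 48 h, 13 to 29 for 48 h against 36 h and 15 to 29 for LAM-like cells at 48 h against PBS. With no filter on low counts 8 genes were called at 6 h and 1 in LAM-like cells against KCs at 48 h. With PBS 0 h alone as control 8 were called at 6 h, 12 at 12 h and 11 in LAM-like cells at 48 h. At 48 h against PBS, 1 was called with DESeq2, with PBS 24 h alone and within set 1 alone, and 3 with set as a covariate. In the last 2 of these fits 6.09% and 5.13% of all genes were called in either direction, so these counts are near or below the share of all genes. Within set 2 alone 21 were called higher at 24 h (12.4% of all genes in either direction). In LAM-like cells at 48 h against PBS, set 2 alone had 7 genes higher and 1, Psma6, lower (9.14%). In LAM-like cells against KCs at 48 h, set 2 alone had 0 calls (2.05%). At 12 h, with 1 library in set 2, the median log2 fold change of the 44 genes was 0.47. Within set 1 alone 2 were lower at 72 h (8.62% of all genes called in either direction) and 12 at 48 h against 36 h (4.36%). Psme4 changed direction between phases within set 2 alone (0.013 on the log2 scale, from -0.19). The fits by set were added after the data were seen, have fewer samples, and other causes were not tested. With the replicate number as a block, 14, 22, 36 and 37 genes were called at 6, 12, 24 and 36 h, and 0 and 2 in LAM-like cells against KCs at 36 and 48 h; the block moved no count of calls by over 1.5 times. Same-numbered libraries of KC APAP groups share a number and mostly a set. Of these pairs 30 of 144 correlated over 0.1, beside 34 of 432 differently numbered pairs. Genes with low counts, such as Psma8, and groups of 2 PBS libraries limit the precision.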
